A study of Rattus norvegicus with 12 samples.

Results

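The levels of 9 genes of rat heart muscle were followed across lean, obese and nicotinamide-treated obese animals: Tceal7, Chi3l1, Dynll1, Card9, Fam131c, Apln, Crym, Abhd2 and Abcf1. They are 9 of the 17104 genes of the deposited table with a value in every library, and they were found in it by symbol. They had been picked because their levels in treated hearts stayed away from the lean level, so they were chosen by their measured TPM in the same lean, obese and treated libraries. Their differences among the 3 groups are therefore a description. Where the text says how many of the 9 lay past a threshold in the fit over all genes, the count restates that choice and supports nothing.

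The study asked about NAD+ in diastolic dysfunction and in heart failure with preserved ejection fraction, and nicotinamide (NAM), a form of vitamin B3, is a precursor of NAD+. Its RNA sequencing compared 12 samples of ZSF1 rat cardiac muscle, 4 in each group. The first group was lean control ZSF1 rats and the second was obese ZSF1 rats, whose treatment label calls the obesity diet-induced. The third group was obese ZSF1 rats with 24 mM NAM in the drinking water between 8 and 20 weeks of age. All animals were of the ZSF1 strain, were housed in conventional conditions and had free access to food and water. As background, obesity in the ZSF1 line comes from defective alleles of the leptin receptor, carried by rats of partly hypertensive descent. The labels read here give neither the age of the lean and untreated obese rats at sampling, nor the sex, nor whether each sample is a separate animal. A p-value therefore measures only the spread between these samples, which may be technical.

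The 9 genes do not form a pathway. Card9 is an adaptor that carries signals from C-type lectin receptors of myeloid cells to Bcl10 and Malt1, and Chi3l1 is a secreted chitinase-like protein without chitinase activity that is made by macrophages and connective tissue cells. Apln encodes apelin, a peptide that acts on the receptor Aplnr of heart and vessels, and Crym encodes mu-crystallin, which binds thyroid hormone in the cytosol and reduces ketimines formed in lysine breakdown. Dynll1 is the LC8 light chain of dynein and also a hub that binds many other proteins. Tceal7 belongs to a small X-linked family related to the transcription elongation factor TFIIS. Abcf1 is an ABC-family ATPase without membrane spans that binds the ribosome and the initiation factor eIF2, and Abhd2 is a serine hydrolase known in human sperm as a monoacylglycerol lipase.

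Expression was deposited as TPM, the share of a library's transcripts that fall to a gene, corrected for length. Read depth cannot be had from such shares and is unknown. Mitochondrially encoded transcripts took 66.2 to 70.4% of the TPM in lean, 74.6 to 75.5% in obese and 69.9 to 73.8% in treated libraries. The tested genes were the 10526 that reached 1 TPM in 4 or more libraries. Their median moved by -0.20 on the log2 scale in obese against lean and by 0.25 in treated against obese, opposite to that share. In treated against lean it moved by 0.05, although the range of shares was higher in treated libraries. Each comparison is therefore given on the deposited scale and again after dividing each library by a factor, called rescaled. For each tested gene above 0 in every library, its TPM was divided by that gene's geometric mean across the libraries. The factor of a library is the median of these ratios. Rescaling brought the medians of the 3 comparisons to between -0.01 and 0.00. As a check of the label cardiac muscle, 11 of 12 listed cardiomyocyte markers were in the table and summed to between 16590 and 27150 TPM in each library. Summed atrial markers lay between 105 and 176 TPM in lean, 127 and 596 TPM in obese, and 184 and 1121 TPM in treated libraries, with the highest sum in treated replicate 1. The labels name no run or batch, and one that coincided with a group cannot be told apart from it.

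In obese hearts 3 of the 9 genes were higher than in lean hearts and 6 were lower, with no overlap between the 4 obese and the 4 lean libraries for any of them on either scale. This follows from how they were picked, as do the counts of these genes past a threshold. Of all tested genes 23.8% lay apart between these groups as deposited, 0.627% higher and 23.2% lower, and 9.57% after rescaling, 4.26% higher and 5.31% lower. Tceal7, Chi3l1 and Dynll1 were higher, by 1.45 to 1.93 times in mean TPM, and Card9, Fam131c, Apln, Crym, Abhd2 and Abcf1 were lower, by 1.65 to 3.95 times. All 9 lay past limma's threshold of an adjusted p of 0.05 as deposited, where 0.352% of all genes were called higher and 16.5% lower. After rescaling, 7 of the 9 lay past it, 3 higher and 4 lower, where 0.589% of genes were called higher and 0.751% lower, and Fam131c and Crym were the exceptions.

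In treated hearts 0 of the 9 lay past limma's threshold against untreated obese hearts, on either scale, where it called 29.2% of all genes as deposited, 28.8% higher and 0.466% lower, and 0.713% after rescaling, 0.200% higher and 0.513% lower. At an unadjusted p under 0.05, 2 of the 9 were higher and 0 lower as deposited, where 41.4% of all genes were higher and 1.07% lower. After rescaling 0 were higher and 3 lower, where 7.27% of all genes were higher and 8.42% lower. Against lean hearts, the distance the genes were picked for, 7 of the 9 lay past it as deposited, 1 higher and 6 lower, where 0.865% of all genes were called higher and 0.969% lower (1.83% in all). After rescaling 6 did, all lower, where 0.770% of genes were higher and 1.59% lower (2.36% in all). Treated and lean libraries did not overlap for 8 of the 9, 2 higher and 6 lower on either scale, where 6.94% of all genes lay higher and 3.81% lower as deposited (10.7% in all) and 5.84% and 6.35% after rescaling (12.2% in all). Not every library stayed apart as the picking rule describes. Treated Dynll1 overlapped lean on both scales, and treated Apln lay above every untreated obese value as deposited, though not after rescaling. As deposited 28.0% of all genes lay above untreated obese hearts in that way and 0.333% below (28.4% in all). Card9 alone lay below them after rescaling, where 4.87% of all genes lay above and 4.30% below (9.18% in all).

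**Figure D1:**
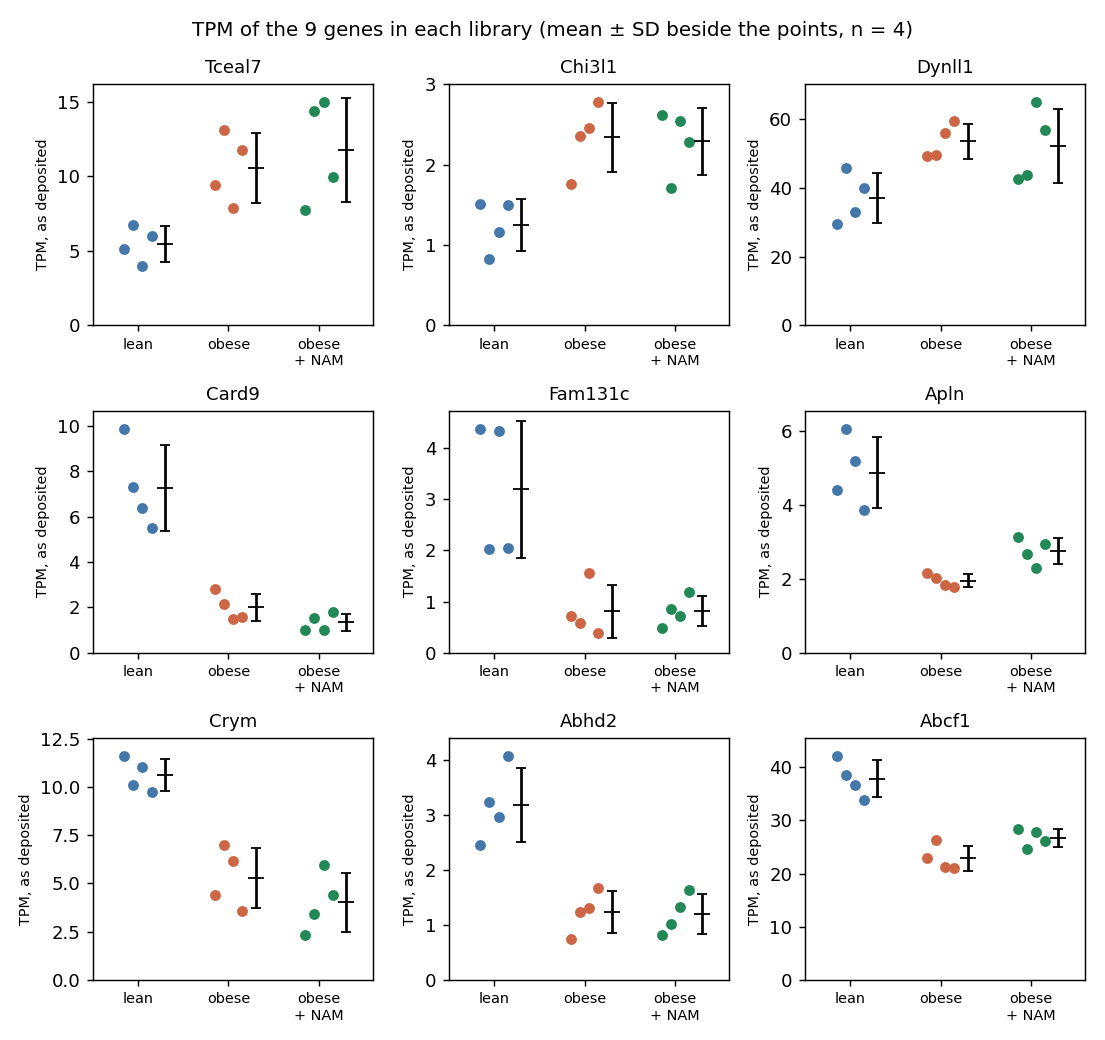
Deposited TPM (y axis, from 0) of each of the 9 genes in the 12 libraries, by group; points are libraries and the bars beside them are the mean ± SD of 4. Obese and lean points are apart in all 9 panels, and treated points lie on the obese side of every lean point except for Dynll1, which reaches into the lean range. Treated Apln lies between the other groups, and some treated points of Card9, Crym, Tceal7, Chi3l1, Dynll1 and Abcf1 lie outside the obese range.

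Tceal7 was one of the 3 genes with more RNA in obese hearts. Its deposited level was 5.15, 6.77, 3.97 and 6.02 TPM in lean replicates 1 to 4, and 9.45, 13.1, 7.88 and 11.8 TPM in the obese ones. It was 7.77, 14.4, 15.03 and 9.98 TPM in the treated ones, so all 8 obese libraries, treated or not, stood above all 4 lean ones. The mean was 5.48 ± 1.21 TPM (SD, n = 4) in lean, 10.6 ± 2.34 TPM in obese and 11.8 ± 3.50 TPM in treated hearts. The log2 difference was 0.83 (SE 0.21) in obese against lean and 0.96 (SE 0.21) in treated against lean, and 1.06 and 0.90 (both SE 0.23) after rescaling. The treated libraries spread most, with a coefficient of variation of 29.7%. In bulk tissue, here and for every gene below, fewer cells of a type and less RNA per cell cannot be told apart.

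Of the Tceal, Bex and Tcea families, 7 members were tested, and 2 of them rose in treated against lean hearts, the RefSeq neighbours of Tceal7 on chromosome X. Of all tested genes 0.865% rose in that comparison as deposited and 0.770% after rescaling. At an unadjusted p under 0.05, 4 of the 7 were higher and 0 lower as deposited, and 4 higher and 1 lower after rescaling. Among tested genes, Tceal8 and Tceal9 are the nearest on either side of Tceal7 in the RefSeq order of a newer assembly. They were not used to choose the 9, but their list and the neighbours were taken with earlier results of these data known. Tceal9 was 29.1 ± 3.36 TPM in lean, 39.0 ± 4.91 TPM in obese and 40.7 ± 3.29 TPM in treated hearts. All 4 obese and all 4 treated values, from 36.0 TPM upward, lay above the highest lean value of 32.8 TPM. Tceal9 rose in obese against lean by 0.41 (SE 0.11, limma adjusted p = 0.0206) and after rescaling by 0.67 (SE 0.10, adjusted p = 0.00799). It rose in treated against lean by 0.48 (adjusted p = 0.042) and after rescaling by 0.41 (adjusted p = 0.0447), and did not pass in treated against obese (0.06, adjusted p = 0.677).

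Tceal8 had another course. It measured 25.3, 32.8, 33.2 and 34.3 TPM in lean, 33.8, 34.7, 33.0 and 40.8 TPM in obese, and 49.2, 46.3, 46.3 and 49.1 TPM in treated replicates 1 to 4. The 4 treated values stood above all other 8. Against lean, Tceal8 rose in treated hearts by 0.60 (SE 0.10, limma adjusted p = 0.0119) and after rescaling by 0.53 (adjusted p = 0.0279), while in obese hearts it was 0.18 higher as deposited (adjusted p = 0.235) and 0.43 higher after rescaling (adjusted p = 0.0759). In treated against obese it rose by 0.42 as deposited (adjusted p = 0.0109) and did not pass after rescaling (0.10, adjusted p = 0.696). With 1 library left out, the call of Tceal9 in treated against lean was lost in 9 of 12 fits as deposited and 10 of 12 after rescaling, at changes of 0.41 to 0.54 and 0.35 to 0.49. That of Tceal8 was kept in 12 of 12 fits as deposited and lost in 5 of 12 after rescaling, at changes of 0.42 to 0.58 over all 12. In obese against lean Tceal9 missed the threshold without lean replicate 2 as deposited (0.34, adjusted p = 0.0557) and kept it in 12 of 12 fits after rescaling. Of the rest of these families, Tcea3, a TFIIS elongation factor, fell in obese hearts by 0.44 (limma adjusted p = 0.0107). Tcea3 and Bex3 rose in treated against obese by 0.31 and 0.46 (adjusted p = 0.032 and 0.03). None of these calls passed after rescaling. As deposited 1 of the 7 rose and 1 fell in obese against lean, where 0.352% of all genes rose and 16.5% fell. In treated against obese 3 of the 7 rose, where 28.8% of all genes rose.

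Since Tceal7 and its neighbours were all higher in treated than in lean hearts, their start regions are shown: the 250 bases before the RefSeq start of each gene, from GRCr8, which is not the assembly of the deposited table. Capitals mark every match, on either strand, to the 5 motifs searched: the TATA box as TATAAA, the CCAAT box, the GC box as GGGCGG, the palindromic E-box as CACGTG, and the nuclear receptor half-site as AGGTCA.
Tceal7 (chrX:104019834-104020083, plus strand): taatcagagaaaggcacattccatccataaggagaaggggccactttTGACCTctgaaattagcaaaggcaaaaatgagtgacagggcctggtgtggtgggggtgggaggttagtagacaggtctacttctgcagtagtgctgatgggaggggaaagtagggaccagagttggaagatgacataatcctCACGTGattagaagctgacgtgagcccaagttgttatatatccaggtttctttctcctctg
Tceal8 (chrX:103965001-103965250, minus strand): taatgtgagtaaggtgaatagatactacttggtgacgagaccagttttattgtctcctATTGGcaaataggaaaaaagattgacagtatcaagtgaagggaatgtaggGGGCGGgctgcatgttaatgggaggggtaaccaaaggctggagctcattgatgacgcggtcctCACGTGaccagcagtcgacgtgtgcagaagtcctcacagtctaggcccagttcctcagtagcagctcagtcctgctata
Tceal9 (chrX:104037024-104037273, plus strand): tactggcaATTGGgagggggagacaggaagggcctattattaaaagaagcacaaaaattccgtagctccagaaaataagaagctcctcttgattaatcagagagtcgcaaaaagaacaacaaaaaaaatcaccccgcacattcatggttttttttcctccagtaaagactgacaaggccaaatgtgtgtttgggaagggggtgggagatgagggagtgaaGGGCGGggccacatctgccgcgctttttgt
The palindromic E-box CACGTG begins at position -61 from the start of Tceal7 and at -79 from that of Tceal8, and is not in the Tceal9 window. It is in 5.59% of 33469 RefSeq windows of the same length. In the Tceal7 window the AGGTCA half-site is on the minus strand at -203, a motif held by 14.1% of windows, and GGGCGG is in the windows of Tceal8 and Tceal9 and in 30.5% of all. CCAAT, read on the minus strand in the windows of Tceal8 and Tceal9, is in 34.0% of windows, and TATAAA, in none of these 3, is in 12.9%. These are matches of letters, not sites of binding.

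**Figure D2:**
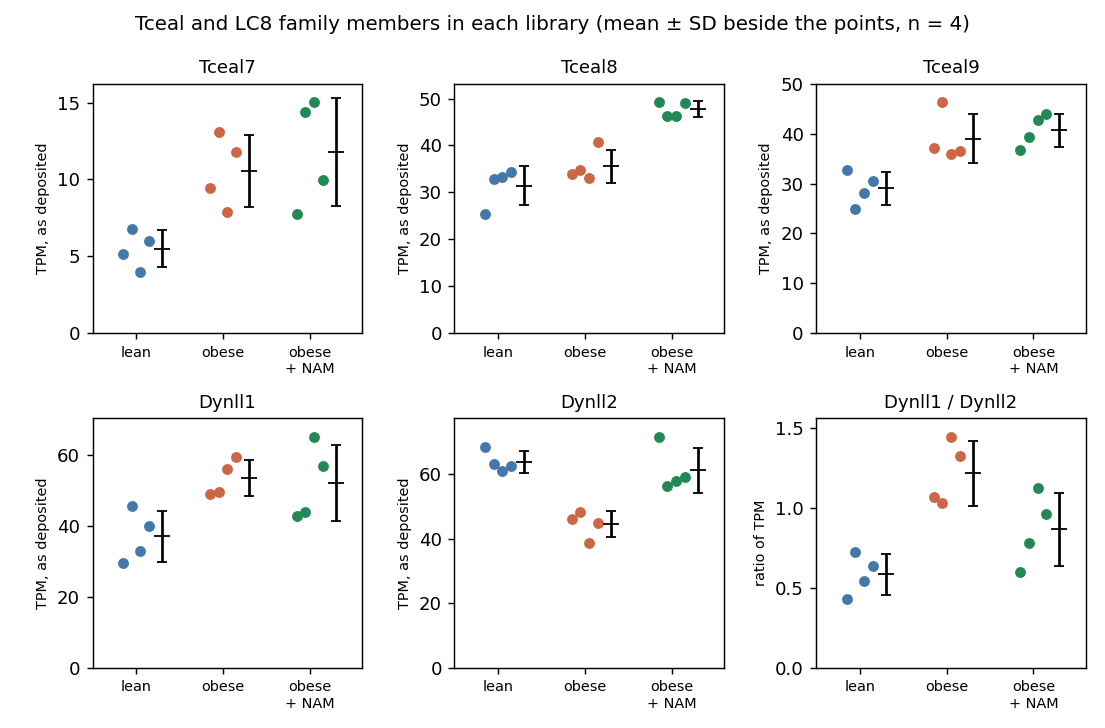
Deposited TPM (y axis, from 0) of Tceal7 beside its neighbours Tceal8 and Tceal9, of Dynll1 beside its paralog Dynll2, and the ratio of Dynll1 to Dynll2, in the 12 libraries; points are libraries and bars the mean ± SD of 4. Treated Tceal8 stands above every other library, and the ratio of Dynll1 to Dynll2 is above 1 in all 4 obese libraries and at most 0.726 in all 4 lean ones.

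Chi3l1, the chitinase-like protein, was higher in all 8 obese libraries than in all 4 lean ones. It was 1.51, 0.821, 1.16 and 1.49 TPM in lean, 1.76, 2.36, 2.45 and 2.78 TPM in obese, and 2.62, 1.71, 2.54 and 2.28 TPM in treated replicates 1 to 4. The means were 1.25 ± 0.327, 2.34 ± 0.426 and 2.29 ± 0.412 TPM (SD, n = 4), a low level at the 23rd percentile of tested genes, where counting error is unknown. The log2 difference was 0.57 (SE 0.14) in obese against lean and 0.55 (SE 0.14) in treated against lean, and 0.75 and 0.50 (both SE 0.13) after rescaling. The treated group kept 96.2% of the log2 distance between obese and lean as deposited and 66.5% after rescaling. The 12 macrophage markers summed to between 82.0 and 128 TPM in lean, 51.4 and 236 TPM in obese, and 112 and 127 TPM in treated libraries, and 0 of them passed limma's test in any of the 3 comparisons on either scale. At an unadjusted p under 0.05, 1 was higher in obese against lean and 1 lower in treated against obese after rescaling, and 0 as deposited. The 11 fibroblast markers in the table summed to between 621 and 671 TPM in lean, 536 and 955 TPM in obese, and 551 and 679 TPM in treated libraries. After rescaling the median change of the fibroblast markers was 0.43 in obese against lean and -0.43 in treated against obese, with 9 higher in the former and 8 lower in the latter at an unadjusted p under 0.05. Limma called 0 of them in the former and 1 in the latter, Gsn, which encodes gelsolin (-0.57, adjusted p = 0.0286; named after its value was seen), and that call was lost in 5 of 12 fits with 1 library left out. The part of macrophages or fibroblasts in the Chi3l1 values was not tested. Of the known receptors and relatives of Chi3l1, 5 of 12 listed genes were tested and limma called 0 in any comparison, with at most 2 of them past an unadjusted p of 0.05. The receptor partner Tmem219 was 1.62 ± 0.399 TPM in lean, 1.52 ± 0.345 TPM in obese and 1.69 ± 0.453 TPM in treated hearts, and the receptor Il13ra2 was at or below 0.201 TPM in every library.

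Dynll1, the LC8 light chain, had the highest mean TPM of the 9 over the 12 libraries, though Abcf1 was slightly higher in lean ones. It was 29.5, 45.8, 33.1 and 40.0 TPM in lean, 49.2, 49.7, 56.0 and 59.7 TPM in obese, and 42.8, 44.0, 65.2 and 57.0 TPM in treated replicates 1 to 4. Obese and lean did not overlap, but treated replicates 1 and 2 lay below the highest lean library. The means were 37.1 ± 7.27, 53.6 ± 5.07 and 52.3 ± 10.8 TPM. The log2 difference from lean was 0.53 (SE 0.15) in obese and 0.48 (SE 0.15) in treated hearts as deposited, and 0.79 and 0.42 (both SE 0.16) after rescaling. The treated group thus kept 89.9% of the obese distance from lean on the deposited scale and 52.8% after rescaling, with a range of 39.8 to 67.4% as 1 library was left out.

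The paralog Dynll2, whose protein is nearly the same as that of Dynll1, went the other way in obese hearts. It was 68.6, 63.2, 61.0 and 62.6 TPM in lean, 46.2, 48.2, 38.8 and 45.0 TPM in obese, and 71.7, 56.3, 57.9 and 59.3 TPM in treated replicates 1 to 4. The 4 obese libraries were below all other 8. Dynll2 fell in obese against lean by 0.51 (SE 0.09, limma adjusted p = 0.00451) and rose in treated against obese by 0.45 (SE 0.09, adjusted p = 0.00606) as deposited. After rescaling neither passed (-0.26, adjusted p = 0.118, and 0.13, adjusted p = 0.434). The ratio of Dynll1 to Dynll2, which no scaling of a library can change, was 0.585 ± 0.127 in lean, 1.22 ± 0.201 in obese and 0.866 ± 0.228 in treated hearts (SD, n = 4). Obese ratios of 1.03 to 1.45 lay apart from lean ratios of 0.430 to 0.726, and treated ratios of 0.598 to 1.13 overlapped both. Dynll1 entered this ratio because of its own pattern, so the ratio has no test, and how reads that fit both copies were assigned is unknown.

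The dynein and dynactin list fell in part in obese hearts and rose in part in treated ones as deposited. Of its 21 tested genes, 9 fell and 0 rose in obese against lean, where 16.5% of all genes fell, and the list's median was -0.30 beside -0.20 over all genes. In treated against obese 12 rose and 0 fell, where 28.8% of all genes rose, with a median of 0.36 beside 0.25. Dynlt3, another dynein light chain, was 18.0 ± 0.645 TPM in lean, 14.4 ± 1.79 TPM in obese and 21.2 ± 1.33 TPM in treated hearts (limma adjusted p = 0.0331 for the fall and 0.00348 for the rise). Pafah1b1 (Lis1), a regulator of the motor, was 28.3 ± 1.29, 22.1 ± 1.09 and 31.5 ± 4.30 TPM (adjusted p = 0.03 and 0.00528). Its partner Nde1 rose in treated against obese by 0.67 (adjusted p = 0.00323). The heavy chain Dync1h1 was 4.50 ± 0.326, 3.53 ± 0.639 and 5.08 ± 0.536 TPM, and rose by 0.43 in treated against obese (adjusted p = 0.0151). After rescaling limma called 0 of the 21 in any comparison, with 3 in each of the first 2 comparisons and 3 in treated against lean past an unadjusted p of 0.05. Among 6 tested partners of LC8, 2 fell in obese against lean as deposited, where 16.5% of all genes fell. In treated against obese 3 rose, where 28.8% of all genes rose. Mre11, a DNA break repair nuclease subunit, and Tp53bp1, a DNA damage response protein, fell by 0.53 and 0.38 (limma adjusted p = 0.0105 and 0.0158). Both rose in treated against obese by 0.76 and 0.55 (adjusted p = 0.00292 and 0.00323). The third rise was that of Nek9, at changes of 0.29 to 0.48 with 1 library left out, and was lost in 4 of 12 such fits. Mre11 alone passed in treated against obese after rescaling (0.51, adjusted p = 0.0484), and that call was lost in 11 of 12 fits with 1 library left out, at changes of 0.46 to 0.63.

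Card9, the adaptor of C-type lectin receptors, had the largest log2(TPM + 1) difference of the 9, while the ratio of mean TPM between lean and obese was larger for Fam131c, at 3.95. It was 9.88, 7.30, 6.39 and 5.48 TPM in lean, 2.79, 2.16, 1.49 and 1.56 TPM in obese, and 1.01, 1.52, 1.01 and 1.78 TPM in treated replicates 1 to 4. Every lean library lay above every obese and treated one. The means were 7.26 ± 1.90, 1.999 ± 0.607 and 1.33 ± 0.384 TPM (SD, n = 4), a mean 3.63 times lower in obese and 5.46 times lower in treated hearts than in lean ones. The log2 difference was -1.46 (SE 0.18) in obese against lean and -1.81 (SE 0.18) in treated against lean, and -1.27 and -1.82 (both SE 0.19) after rescaling. Treated Card9 was below untreated obese Card9 by 0.36 as deposited, with overlap, and by 0.56 after rescaling, where all 4 treated values were below all 4 obese ones. Neither passed the threshold.

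The partners of Card9 did not follow it. Bcl10 was 5.87 ± 1.82 TPM in lean, 5.66 ± 1.19 TPM in obese and 6.09 ± 0.212 TPM in treated hearts, and Malt1, the protease of that complex, was 2.25 ± 0.340, 1.96 ± 0.499 and 2.22 ± 0.236 TPM. Neither passed in any comparison (limma adjusted p from 0.451 to 0.988 as deposited). The ratio of Card9 to Bcl10 was 1.25 ± 0.0852 in lean, 0.389 ± 0.225 in obese and 0.218 ± 0.0620 in treated hearts, with lean apart from the other 8 libraries. Card9 was picked for its own pattern, so this ratio restates the choice and has no test. Syk, the kinase upstream, was at most 0.939 TPM in every library. Of 11 tested genes of C-type lectin and Card9 signalling, Tab2, an adaptor of the kinase Tak1, alone was called: it fell in obese hearts by 0.45 (adjusted p = 0.0249) and rose in treated against obese by 0.52 (adjusted p = 0.00919), and neither passed after rescaling (adjusted p = 0.308 and 0.304), where limma called 0 of the 11 and 2, 2 and 1 were past an unadjusted p of 0.05 in the 3 comparisons. Neutrophils also express Card9, and the 5 neutrophil markers in the table summed to 109 TPM in lean replicate 1, the library with the highest Card9, against 5.07 to 18.2 TPM in the other lean, 0.751 to 20.2 TPM in the obese and 3.31 to 6.64 TPM in the treated libraries. Without lean replicate 1, the Card9 differences from lean were -1.31 in obese and -1.67 in treated hearts. Macrophage marker sums overlapped between all 3 groups, and the part of either cell type in the Card9 values was not tested.

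Fam131c was low everywhere, at the 16.9th percentile of tested genes, and passed the filter on low values through the lean libraries. It was 4.38, 2.04, 4.34 and 2.04 TPM in lean, 0.709, 0.585, 1.56 and 0.386 TPM in obese, and 0.478, 0.863, 0.715 and 1.20 TPM in treated replicates 1 to 4. Lean libraries fell into a higher and a lower pair, all above the other 8. The means were 3.20 ± 1.34, 0.810 ± 0.517 and 0.813 ± 0.301 TPM (SD, n = 4). The log2 difference from lean was -1.20 (SE 0.24) in obese and -1.17 (SE 0.24) in treated hearts, and -1.06 and -1.17 (both SE 0.24) after rescaling. The treated group kept 97.7% of the distance from lean as deposited. Its paralog Fam131a was 1.40 ± 1.05 TPM in lean, 1.55 ± 0.160 TPM in obese and 1.09 ± 0.734 TPM in treated hearts without a call, and Fam131b was at most 0.246 TPM in every library.

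Apln, which encodes apelin, was lower in obese than in lean hearts and, as deposited, lay between the other groups with NAM. It was 4.40, 6.06, 5.17 and 3.85 TPM in lean, 2.16, 2.02, 1.84 and 1.78 TPM in obese, and 3.12, 2.67, 2.30 and 2.93 TPM in treated replicates 1 to 4. The 3 groups did not overlap as deposited, with treated libraries between the others. The means were 4.87 ± 0.958, 1.95 ± 0.175 and 2.75 ± 0.357 TPM (SD, n = 4). The log2 difference was -0.98 in obese against lean, 0.35 in treated against obese and -0.64 in treated against lean (each SE 0.12). After rescaling these were -0.80, 0.12 and -0.68, with treated and obese overlapping, so that 64.8% of the distance from lean was kept as deposited and 84.9% after rescaling. The difference of 0.35 stood beside the shift of 0.25 of the median gene in that comparison.

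The receptor of apelin varied among lean libraries. Aplnr was 1.13, 11.5, 10.3 and 3.31 TPM in lean, 5.12, 4.93, 2.03 and 2.95 TPM in obese, and 6.47, 5.77, 2.92 and 4.87 TPM in treated replicates 1 to 4, and was not called in any comparison. Of 13 tested genes of apelin's receptor, processing and regulation, Epas1, an oxygen-regulated transcription factor, fell in obese hearts by 0.44 (limma adjusted p = 0.0262), and Epas1 and Egln3, an oxygen-dependent hydroxylase, rose in treated against obese by 0.61 and 0.38 (adjusted p = 0.00497 and 0.0241). Over all genes 16.5% fell in obese against lean and 28.8% rose in treated against obese. After rescaling limma called 0 of the 13 in any comparison, with 1 higher in treated against obese and 1 lower in treated against lean past an unadjusted p of 0.05. The 8 listed tip cell markers, a cell state that makes apelin, summed to between 11.3 and 19.9 TPM in lean, 10.2 and 15.4 TPM in obese, and 13.2 and 19.4 TPM in treated libraries. The 11 endothelial markers summed to between 635 and 766, 665 and 926, and 550 and 761 TPM. After rescaling limma called 0 of either list; at an unadjusted p under 0.05 3 endothelial markers were higher and 1 lower in obese against lean, 2 were lower in treated against obese, and 0 tip cell markers differed. Their part in the Apln values was not tested.

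Crym, mu-crystallin, was lower in obese and lowest in treated hearts. It was 11.6, 10.1, 11.02 and 9.75 TPM in lean, 4.38, 6.96, 6.15 and 3.57 TPM in obese, and 2.33, 3.41, 5.95 and 4.37 TPM in treated replicates 1 to 4. The 4 lean values were close together, with a coefficient of variation of 7.98%, and stood above all other 8, while obese and treated values overlapped. The means were 10.6 ± 0.847, 5.27 ± 1.56 and 4.01 ± 1.54 TPM (SD, n = 4). The log2 difference was -0.92 (SE 0.22) in obese against lean and -1.26 (SE 0.22) in treated against lean, and -0.70 and -1.30 (both SE 0.21) after rescaling. Treated against obese it was -0.34 as deposited and -0.60 after rescaling, neither past the threshold.

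The thyroid hormone receptor Thrb did not share that course. Thrb was 7.12, 7.14, 6.47 and 5.86 TPM in lean, 4.70, 4.80, 4.06 and 4.20 TPM in obese, and 9.09, 6.76, 8.12 and 6.70 TPM in treated replicates 1 to 4, with obese below all other 8. It fell in obese hearts by 0.49 (SE 0.11, limma adjusted p = 0.0106) and rose in treated against obese by 0.67 (SE 0.11, adjusted p = 0.00305). After rescaling the changes were -0.27 and 0.39 and did not pass (adjusted p = 0.166 and 0.0868). The ratio of Crym to Thrb was 1.60 ± 0.130 in lean, 1.19 ± 0.345 in obese and 0.537 ± 0.210 in treated hearts, and all treated ratios, up to 0.734, were below all others. Crym entered this ratio because of its own pattern, so the ratio has no test. Thra was 7.36 ± 1.05, 6.11 ± 0.697 and 6.60 ± 0.351 TPM and was not called. The deiodinase Dio2 was below the filter. Of 11 tested thyroid hormone genes, 2 fell in obese hearts, Thrb and the partner receptor Rxrb (-0.94, adjusted p = 0.0303), which was named after its value was seen. In treated against obese 4 rose: Thrb, the coactivator Ncoa1 (0.46, adjusted p = 0.00536), the corepressor Ncor1 (0.46, adjusted p = 0.00997) and the transporter Slc16a10 (0.44, adjusted p = 0.0278). Of 4 tested genes of lysine breakdown, Gcdh and Aldh7a1, both enzymes of that route, fell by 0.42 and 0.43 (adjusted p = 0.00981 and 0.0345) and rose by 0.37 and 0.44 (adjusted p = 0.0115 and 0.0217). As deposited 16.5% of all genes fell in obese against lean and 28.8% rose in treated against obese. After rescaling limma called 0 of either list in any comparison. At an unadjusted p under 0.05, 2 thyroid hormone genes were lower in obese against lean, 3 were higher in treated against obese, 1 was higher and 1 lower in treated against lean, and 0 of the lysine genes differed.

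Abhd2, the hydrolase, was low in all groups and about the same in both obese ones. It was 2.46, 3.24, 2.97 and 4.08 TPM in lean, 0.748, 1.24, 1.30 and 1.67 TPM in obese, and 0.821, 1.01, 1.32 and 1.64 TPM in treated replicates 1 to 4. Lean values stood above the other 8, and the obese and treated ranges nearly coincided. The means were 3.19 ± 0.678, 1.24 ± 0.380 and 1.20 ± 0.361 TPM (SD, n = 4). The log2 difference from lean was -0.91 in obese and -0.93 in treated hearts (both SE 0.16), and -0.75 and -0.95 (both SE 0.16) after rescaling. Of 16 tested relatives and monoacylglycerol lipases, Abhd16a, a phosphatidylserine lipase, fell in obese hearts by 0.53 (limma adjusted p = 0.023), and Abhd18, Abhd5, the coactivator of adipose triglyceride lipase, and Abhd6, a monoacylglycerol lipase, rose in treated against obese by 0.67, 0.28 and 0.32 (adjusted p = 0.00292, 0.0353 and 0.0412). Over all genes 16.5% fell in obese against lean and 28.8% rose in treated against obese. Mgll, the main monoacylglycerol lipase, was 16.0 ± 1.52, 14.0 ± 2.34 and 13.3 ± 1.73 TPM without a call. After rescaling limma called 0 of the 16 in any comparison, with 2, 3 and 5 past an unadjusted p of 0.05 in obese against lean, treated against obese and treated against lean.

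Abcf1, the ribosome-binding ATPase, was lower in obese and treated hearts with little spread within groups. It was 42.1, 38.5, 36.7 and 33.9 TPM in lean, 22.9, 26.3, 21.2 and 21.1 TPM in obese, and 28.4, 24.7, 27.9 and 26.0 TPM in treated replicates 1 to 4. Lean values were above the other 8, and treated values were in the upper part of the obese range or above it. The means were 37.8 ± 3.46, 22.9 ± 2.40 and 26.8 ± 1.71 TPM (SD, n = 4). The log2 difference from lean was -0.70 (SE 0.09) in obese and -0.48 (SE 0.09) in treated hearts as deposited. After rescaling it was -0.45 and -0.54 (both SE 0.07), so the share of the distance kept went from 68.7% to 120%. The sign of treated against obese turned with the scale, from 0.22 to -0.09.

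The other ABC-F genes differed from Abcf1 in part. Abcf2 was 16.4 ± 2.17 TPM in lean, 14.3 ± 2.08 TPM in obese and 21.1 ± 2.22 TPM in treated hearts, and rose in treated against obese by 0.54 (limma adjusted p = 0.00781; 0.23 and 0.332 after rescaling). Abcf3 was 9.25 ± 0.613, 6.56 ± 0.964 and 8.24 ± 1.17 TPM, and fell in obese hearts by 0.45 (adjusted p = 0.0201; -0.22 and 0.395 after rescaling). The ratio of Abcf1 to Abcf2 was 2.32 ± 0.236 in lean, 1.63 ± 0.245 in obese and 1.28 ± 0.166 in treated hearts, with lean above all other 8. The ratio of Abcf1 to Abcf3 was 4.09 ± 0.223, 3.50 ± 0.200 and 3.31 ± 0.598, with treated overlapping both other groups. Abcf1 entered both ratios because of its own pattern, so neither has a test. Of 17 tested ABC-F, eIF2 and related genes, 5 fell in obese hearts, namely Abcf3, the initiation factor Eif5b (-0.30, adjusted p = 0.0337), the ribosome recycling factor Abce1 (-0.33, adjusted p = 0.0498) and, named after their values were seen, Eif5 and Gcn1 (-0.41 and -0.38, adjusted p = 0.032 and 0.033). In treated against obese 8 rose, among them Eif5b and Abce1 (0.42 and 0.43, adjusted p = 0.0061 and 0.0116). Over all genes 16.5% fell in the former comparison and 28.8% rose in the latter. After rescaling limma called 0 of the 17 in any comparison, with 1 higher and 1 lower in treated against lean past an unadjusted p of 0.05 and 0 in the other comparisons.

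**Figure D3:**
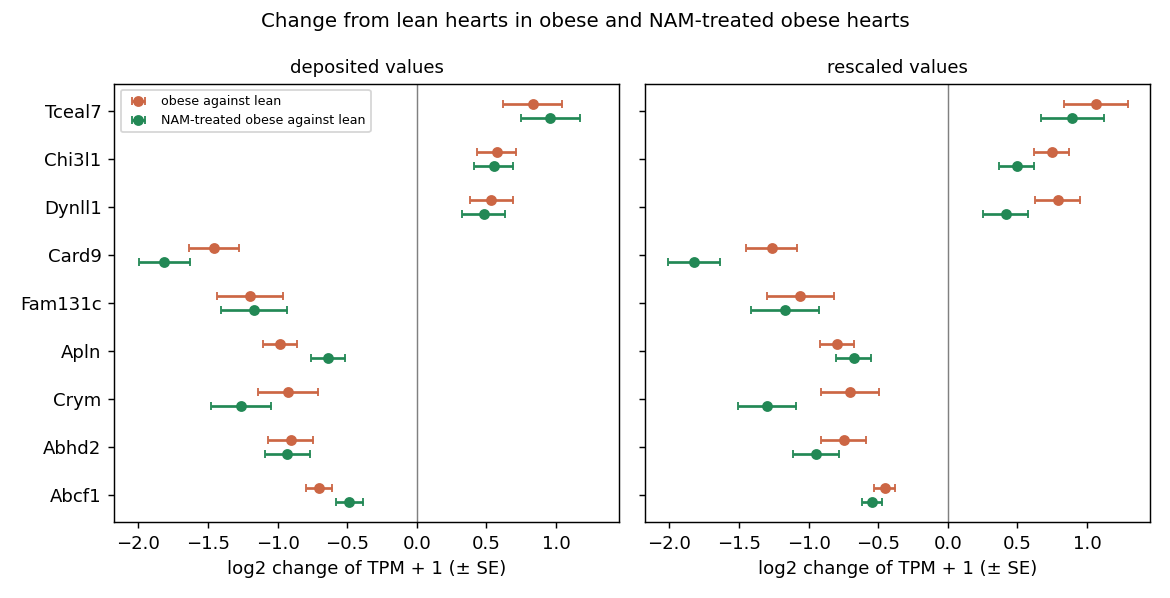
Log2 difference of TPM + 1 from lean (x axis) of the 9 genes for hearts of untreated and of NAM-treated obese rats, for deposited values (left) and rescaled values (right); points are estimates from 4 against 4 libraries and bars are ± 1 SE. Both points lie on the same side of 0 for all 9 genes on both scales, and Card9 has the largest differences, -1.46 and -1.81 as deposited.

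The share of the obese difference that remained in treated hearts depended on the scale. As deposited, treated hearts kept 64.8% (Apln) to 137% (Crym) of the log2 distance between obese and lean, and after rescaling 52.8% (Dynll1) to 186% (Crym). The 6 lower genes kept more after rescaling than before: Card9 144%, Fam131c 110%, Apln 84.9%, Crym 186%, Abhd2 126% and Abcf1 120%. Tceal7, Chi3l1 and Dynll1 kept less. That split follows from the sign of each difference and is no property of these genes. Rescaling moved the median over all genes from -0.20 to 0.00 in obese against lean, and from 0.05 to 0.00 in treated against lean. Such a shift shortens the distance between obese and lean for a lower gene and lengthens it for a higher gene. On the rescaled values treated hearts lay at or beyond the obese value for Card9, Fam131c, Crym, Abhd2 and Abcf1, and short of it for Apln, Tceal7, Chi3l1 and Dynll1.

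Since the genes were chosen on these libraries, a difference that stays past the threshold with 1 library left out is no sign of stability, but losses show where single libraries carried it. With 1 library left out, the obese against lean differences of Card9, Fam131c, Apln, Crym, Abhd2 and Abcf1 stayed past the threshold in 12 of 12 fits as deposited. Tceal7 did not pass without lean replicate 1, lean replicate 3 or obese replicate 4, Chi3l1 without obese replicate 4, and Dynll1 without lean replicates 1 or 3 or obese replicates 3 or 4. Their differences then ranged from 0.71 to 0.95, 0.48 to 0.66 and 0.43 to 0.64 over the 12 fits. After rescaling Card9 and Apln passed in 12 of 12 fits, Abcf1 in 11, Chi3l1 in 10, Dynll1 in 4, Tceal7 in 2 and Abhd2 in 0, though the Abhd2 difference stayed between -0.85 and -0.64. In treated against lean, Card9, Crym and Abhd2 passed in 12 of 12 fits on both scales. As deposited, Apln passed in 8, Abcf1 in 7, Fam131c in 6 and Tceal7 in 3 of 12.

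The 112 tested genes of the 11 related lists had medians close to the general shift. In obese against lean 1 rose and 24 fell, with a median of -0.24 beside -0.20 over all genes. In treated against obese 38 rose and 0 fell (median 0.27 beside 0.25), and in treated against lean 2 rose and 0 fell by limma (median 0.06 beside 0.05), with 13 higher and 4 lower at an unadjusted p under 0.05. The share of all genes at that unadjusted level was not computed in treated against lean, so these 2 counts have no background. After rescaling 1 rose in obese against lean (Tceal9), 1 in treated against obese (Mre11) and 2 in treated against lean (Tceal8 and Tceal9), and limma called 0 lower in any of the 3, where 8, 6 and 10 were lower at an unadjusted p under 0.05. At the same threshold 0.352% of all genes rose and 16.5% fell in the first comparison as deposited (16.8% in all). In the second 28.8% rose and 0.466% fell, and in the third 0.865% rose and 0.969% fell. After rescaling 1.34%, 0.713% and 2.36% of all genes were called in the 3 comparisons. Among the deposited falls named above, those of Dynll2, Thrb, Gcdh, Mre11 and Tp53bp1 passed in 12 of 12 fits with 1 library left out. Those of Tab2, Epas1, Abcf3, Rxrb, Aldh7a1, Abhd16a, Eif5, Eif5b, Abce1, Gcn1, Dynlt3 and Pafah1b1 were lost in 3 to 10 of 12, most often that of Abce1, which was -0.24 without obese replicate 1 (adjusted p = 0.124). Among the rises in treated against obese, those of Abhd6, Tcea3, Abhd5, Aldh7a1, Egln3, Bex3 and Slc16a10 were lost in 3 to 9 of 12 fits, most often that of Abhd6, which was 0.24 without treated replicate 4 (adjusted p = 0.122).

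**Figure D4:**
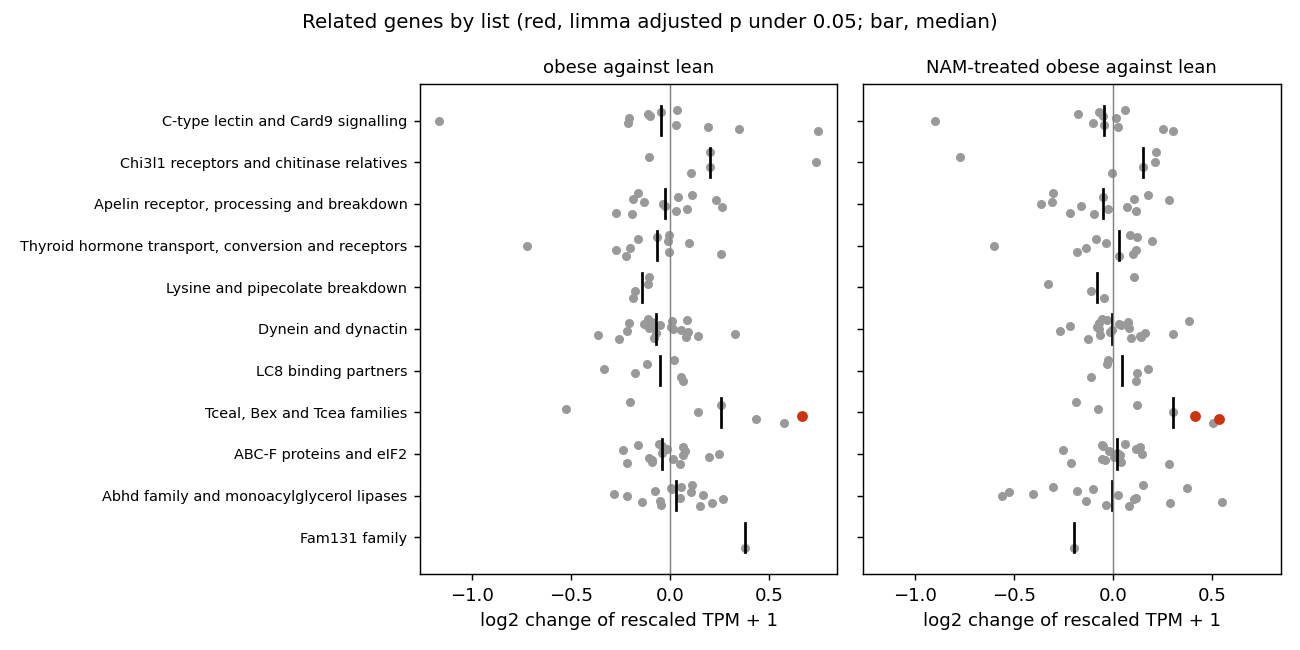
Log2 change of rescaled TPM + 1 (x axis) of each tested related gene, by list (y axis), in obese against lean (left) and NAM-treated obese against lean (right) hearts; grey points did not pass, red points had a limma adjusted p under 0.05 and the bar is the list's median. The red points are all in the Tceal, Bex and Tcea row: Tceal9 on the left, and Tceal8 and Tceal9 on the right.

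Chromosomal neighbours of the other 8 genes gave no such case. The nearest tested genes on either side were taken for each of the 9 after the values had been seen, 18 genes in all, and after rescaling only Tceal8 and Tceal9 passed in any comparison. As deposited, Hspb7 beside Fam131c, a small heat shock protein of muscle, fell by 0.46 in obese hearts (limma adjusted p = 0.00728), Coq5 beside Dynll1, a coenzyme Q enzyme, by 0.39 (adjusted p = 0.0197), and Lyrm1 and Uqcrc2, a complex III subunit, on either side of Crym by 0.71 and 0.34 (adjusted p = 0.00705 and 0.013). Hspb7 and Uqcrc2 rose in treated against obese by 0.39 and 0.51 (adjusted p = 0.0109 and 0.00292) as deposited, where Fam131c and Crym did not pass. Over all genes 16.5% fell in obese against lean and 28.8% rose in treated against obese as deposited. After rescaling 1.34%, 0.713% and 2.36% of all genes passed in obese against lean, treated against obese and treated against lean. The fall of Coq5 was lost in 4 of 12 fits with 1 library left out, and the falls and rises of the other 3 in 0.

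The genes whose pattern over the 12 libraries was most like that of each member, among tested genes with a mean of at least 2 TPM, are given by Pearson's r on rescaled values, with r after taking out group means beside it. Libraries of a group share that group's level, so the first r contains the group differences. The genes were taken for the highest first r, which also holds the spread within groups, so the choice raises both values. For pairs among the 9 the first r also follows from how they were picked. For Card9 they were Myl3, a ventricular myosin light chain (0.979 and 0.886), Fxyd1, a regulator of the sodium pump (0.970 and 0.671), and Pcyt2, an enzyme of phosphatidylethanolamine synthesis (0.965 and 0.755). Myl3 was 2220 ± 223 TPM in lean, 1427 ± 66.5 TPM in obese and 1667 ± 63.1 TPM in treated hearts. For Abcf1 the first was Card9 (0.954 and 0.630), followed by Fxyd1 (0.937 and 0.313) and Jph2, a junctional membrane protein of cardiomyocytes (0.936 and 0.315). Summed cardiomyocyte markers were 23240 to 27150 TPM in lean, 16590 to 18840 TPM in obese and 20440 to 23570 TPM in treated libraries, and their part in the values of the 9 and in these likenesses was not tested. As deposited 10 of the 11 fell and 1 rose in obese against lean, where 16.5% of all genes fell and 0.352% rose. In treated against obese 10 rose and 0 fell, where 28.8% of all genes rose and 0.466% fell. In treated against lean 1 rose and 2 fell, where 0.865% of all genes rose and 0.969% fell. After rescaling the median change of these markers was -0.24 in obese and -0.23 in treated against lean, with 8 and 6 lower at an unadjusted p under 0.05. In obese hearts limma then called Myh6 (-1.52, adjusted p = 0.0012) and Myl3 (-0.37, adjusted p = 0.0272) lower and Myh7 (0.92, adjusted p = 0.016) higher, of which Myl3 was lost in 6 and Myh7 in 2 of 12 fits with 1 library left out. In treated hearts it called the same genes in the same directions, and Tnni3 lower (-0.34, adjusted p = 0.048), which was lost in 10 of 12. Myh6 and Myh7 encode the alpha and beta myosin heavy chains and Tnni3 cardiac troponin I, all named after their values were seen.

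For Chi3l1 the most alike were Fbln2, an extracellular matrix protein (0.948 and 0.835), Pla2g2a, a secreted phospholipase (0.921 and 0.828), and Txndc5, a protein of the endoplasmic reticulum (0.920 and 0.718). For Dynll1 they were Nabp1, Timp4, a metalloproteinase inhibitor of heart, and Cr1l (0.895, 0.890 and 0.888; 0.787, 0.849 and 0.679 without group means). For Tceal7 they were Cd300lg, Nabp1 and an unnamed locus (0.911, 0.907 and 0.865, against 0.666, 0.696 and 0.706). Apln was most like Dmpk, a kinase of muscle, Bdh1, a ketone body enzyme, and Cavin4, a caveolar protein of muscle (0.918, 0.910 and 0.898), and without group means these were 0.643, 0.372 and 0.198. Crym had an unnamed locus, Zdhhc4 and Nudt13 (0.931, 0.921 and 0.881, against 0.708, 0.811 and 0.646). Abhd2 had Mbnl1, a splicing regulator, Slc25a26, a mitochondrial carrier, and Tmem120a (0.949, 0.916 and 0.895, against 0.806, 0.794 and 0.495). Fam131c had Pc, pyruvate carboxylase, Tcea3 and Vwa7 (0.904, 0.898 and 0.892, against 0.687, 0.782 and 0.599). Among the 9 themselves, Apln and Chi3l1 ran most opposite, with r of -0.958 over the 12 libraries and -0.853 without group means.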

How the data were processed

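RNA of ZSF1 rat cardiac muscle was extracted by TRIzol and RNeasy and sequenced from strand-specific (NEBNext Ultra II Directional) libraries, per the labels' protocols. The authors deposited TPM for 12 libraries, with Rnor_6.0 and limma named in the submitters' processing notes without versions. The aligner and counter, not given in the sources used here, decide how reads of close copies were split. Columns summed to between 999794.3 and 999999.5 TPM. In the 4 NAM columns 498 of the 17602 entries deposited by the authors held a text mark in place of a value and were left out, which left 17104 genes, 69 symbols of which stand on several entries. The other values of those columns are TPM of the same scale. Deposited TPM keep no counts, so no counting error or count test can be given. No pair of the 66 sample pairs was identical.

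From these values log2(TPM + 1) was tested with limma 3.58.1 in R 4.3.3 (statmod 1.5.0; 3 group means, moderated variances with trend and robust, 9 residual degrees of freedom) on the 10526 genes with 1 TPM or more in 4 or more of the 12 libraries. Adjusted p-values are Benjamini-Hochberg over all of them, with a threshold of 0.05. Shares of all genes at an unadjusted p under 0.05 were computed only for treated against obese. Counts of listed genes at that level in the other comparisons therefore stand without a background share. Fold changes on this scale understate those of low genes. Rescaled values were divided by a median-of-ratios factor for each library.

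The 9 genes, the 11 related lists and the 11 marker lists were chosen with earlier results of these data known. The genes named are the 9, fixed direct partners (some not reported here), up to 4 genes of each related list that passed with the smallest p, and the 3 most alike genes of each of the 9; others are named as chosen after their values were seen. Promoter windows of 250 bases come from RefSeq's GRCr8 and were found for 7 of the 9 genes. Alternatives were other pseudocounts (0.1 and 5), no filter or a mean of 5 TPM, quantile normalization, TPM without the 13 mitochondrially encoded genes, plain eBayes, fits to 8 libraries, a replicate block, and leaving out each library.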

Additional observations from a re-analysis of the deposited data

Results flagged for a closer look

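In 75 sets of 4 libraries, a gene in a group, the library farthest from the others was compared with the critical value of Dixon's test for 4 values. Chance alone puts about 5% of such sets past it. Of 27 sets of the 9 genes 0 were past it, and 5 sets of partner genes were. Tmem219 in lean replicate 1 was 1.03 TPM, with the other lean libraries at 1.75 to 1.88 TPM. Tceal8 in lean replicate 1 was 25.3 TPM, below the other lean libraries at 32.8 to 34.3 TPM. Tceal9 in obese replicate 2 was 46.4 TPM, above the other obese libraries at 36.0 to 37.2 TPM. Fam131a was listed at 0 TPM in treated replicate 2, with the other treated libraries at 1.36 to 1.62 TPM. Abhd5 in lean replicate 3 was 5.15 TPM, below the other lean libraries at 6.05 to 6.17 TPM.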

How the results depend on the processing

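The 9 genes kept the sign of their difference from lean in both obese groups in every alternative that tested them, 35 for Abcf1, Crym, Dynll1 and Tceal7 and 34 for the other 5, which the mean filter removed. Of the 9 past the threshold in obese against lean, 4 remained without mitochondrially encoded genes in the TPM (Fam131c, Tceal7, Dynll1, Crym and Abhd2 were lost), 4 under a mean of at least 5 TPM, which tests only 4 of them, 6 to 9 with 1 library left out, and 3 to 6 with that and rescaling. Tceal7 and Crym were lost with quantile normalization, and Dynll1 with no filter. In treated against obese the count of 0 became 1 (Apln) with a pseudocount of 0.1, with plain eBayes and in the fit to 8 libraries, and 0 to 1 with 1 library left out: Apln without lean replicate 2, lean replicate 4 or treated replicate 3, and Abcf1 without obese replicate 2. In treated against lean the count of 7 became 3 under the mean filter, which tests fewer genes, 3 to 7 with 1 library left out, and 4 to 6 with that and rescaling. There Chi3l1 was gained without mitochondrially encoded genes, and Fam131c and Tceal7 were lost with no filter. Tceal7 and Apln were lost in the fit to 8 libraries, and Tceal7 with quantile normalization and with plain eBayes.

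Among related genes the 25 called in obese against lean became 1 after rescaling, quantile normalization, and without mitochondrially encoded genes, 11 to 27 with 1 library left out, and 1 to 3 with that and rescaling. The 38 called in treated against obese became 1, 1 and 5 under these 3 settings, 22 to 44 with 1 library left out, and 0 to 1 with that and rescaling. The 2 called in treated against lean became 8 without mitochondrially encoded genes, 4 under the mean filter, and 1 with no filter, plain eBayes or 8 libraries. They became 1 to 3 with 1 library left out and 0 to 2 with that and rescaling. Apart from the filters, the cause was not tested.

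After taking out group means, same-number pairs of libraries correlated at -0.049 to 0.0724 (12 pairs, 0 over 0.1). Pairs of different numbers correlated at -0.0865 to 0.0787 (36 pairs, 0 over 0.1). These values show no pairing by replicate number but cannot exclude one. With the replicate block 9, 0 and 7 of the 9 genes and 17, 35 and 1 related genes passed in the 3 comparisons in order. With the replicate block and rescaling, 7, 0 and 6 of the 9 genes and 1, 0 and 1 related genes passed. Depth is unknown, which limits the low genes Fam131c, Chi3l1 and Abhd2 most.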

Other observations

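The 5 erythroid markers in the table, red cell genes that are no part of the lists above, summed to between 724 and 1596 TPM in lean, 1662 and 4020 TPM in obese, and 487 and 2302 TPM in treated libraries. All 4 obese sums were above all 4 lean ones, and treated sums overlapped both. Limma called 0 of the 5 markers in any comparison on either scale. At an unadjusted p under 0.05, 1 was higher and 1 lower in obese against lean as deposited, and 4 were higher and 0 lower after rescaling. In treated against obese 3 were lower as deposited and 4 after rescaling, with 0 higher.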
